A study of Mus musculus with 17 samples.

Results

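The genes of 7 collagen types that do not build the large banded fibrils were followed in the infarcted mouse heart. They were the 9 genes Col6a1, Col6a2, Col6a3, Col8a1, Col12a1, Col14a1, Col15a1, Col16a1 and Col18a1, chosen by name, and all 9 were found among the 31647 features of the count table. The animals were wild-type males of the C57BL/6J strain, 8 to 11 weeks old. In 9 of them a myocardial infarction (MI) was set by tying off the left anterior descending artery for good, and RNA was taken from the infarct zone (IZ) 5 days (5d) later. The control group comprised 8 mice of the same strain, sex and age range that underwent sham surgery without ligation, and their RNA came from the left ventricle. In both groups 3' mRNA ends were sequenced, and the labels state that molecular identifiers served to take out PCR duplicates. Since such counts come from the ends of transcripts and not from their whole length, levels of different genes were set side by side without dividing by length. The model has no reperfusion, and the dissected IZ holds whatever cells remained in or entered the tissue. In such bulk tissue, more cells of a type and more RNA per cell cannot be told apart.

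Collagens are secreted proteins of 3 chains wound into a triple helix. Types I and III assemble into the fibrils that carry load in a scar, while the types followed here form finer structures or sit on the surface of the fibrils. Collagen VI, built from the products of Col6a1, Col6a2 and Col6a3, forms beaded microfibrils around cells. Collagens XII, XIV and XVI interrupt their helix with non-collagenous stretches and bind along fibrils or to neighbouring matrix. Collagen VIII forms hexagonal networks and is known from vessel walls and injured arteries. Collagens XV and XVIII carry glycosaminoglycan chains at basement membranes, and endostatin is cut from the C-terminal end of collagen XVIII.

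The 9 genes lie on 6 chromosomes of the mouse genome (GRCm38, GENCODE coordinates). Col6a1 (chr10:76708792-76726168), Col6a2 (chr10:76595762-76623630) and Col18a1 (chr10:77052178-77166548) lie on the minus strand of chromosome 10, and Col15a1 (chr4:47208161-47313167) and Col16a1 (chr4:130047840-130099283) on the plus strand of chromosome 4. Col6a3 (chr1:90765923-90843971), Col8a1 (chr16:57624258-57754737) and Col12a1 (chr9:79598991-79718831) are on the minus strand and Col14a1 (chr15:55307750-55520803) is on the plus strand. Their longest transcripts have between 4 exons (Col8a1) and 70 exons (Col16a1). All are protein coding, and none had a near-identical copy in the last 500 bases of its transcript. The 3' end of Col18a1 lies within Slc19a1 on the opposite strand. Slc19a1 had at most 38 counts in a library, and the sources used here do not say whether strand was used in counting, so the reads of both genes may not be fully separated.

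The DNA just upstream of the gene starts is shown for the 3 collagen VI chains, which are joined in 1 molecule. It is also shown for Col8a1 and Col16a1, whose large changes lay close to each other. A link between this DNA and the changes was not tested. RefSeq promoter windows of GRCm38.p6, from 250 bases before to 50 after a start, were matched by symbol for 7 of the 9 genes, with 9 windows. Each stretch reads 5′ to 3′ towards the gene and ends at the base before the most upstream start of RefSeq and GENCODE. Capitals mark the GC box GGGCGG, the CCAAT box CCAAT and the Smad half-site CAGAC, on either strand.
Col6a1, chr10:76726169-76726294, minus strand: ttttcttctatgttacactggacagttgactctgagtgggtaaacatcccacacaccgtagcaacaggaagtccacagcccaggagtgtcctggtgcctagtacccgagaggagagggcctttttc
Col6a2, chr10:76623631-76623780, minus strand: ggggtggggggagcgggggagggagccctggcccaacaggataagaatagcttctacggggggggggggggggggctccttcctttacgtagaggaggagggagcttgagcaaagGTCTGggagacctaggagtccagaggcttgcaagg
Col6a3, chr1:90843972-90844121, minus strand: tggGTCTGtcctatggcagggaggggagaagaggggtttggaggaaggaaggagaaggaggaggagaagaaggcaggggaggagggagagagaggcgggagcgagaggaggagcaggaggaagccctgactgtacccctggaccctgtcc
Col8a1, chr16:57754738-57754887, minus strand: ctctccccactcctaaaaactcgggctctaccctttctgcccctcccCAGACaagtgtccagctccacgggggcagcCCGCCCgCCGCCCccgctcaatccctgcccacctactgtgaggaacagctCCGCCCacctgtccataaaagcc
Col16a1, chr4:130047690-130047839, plus strand: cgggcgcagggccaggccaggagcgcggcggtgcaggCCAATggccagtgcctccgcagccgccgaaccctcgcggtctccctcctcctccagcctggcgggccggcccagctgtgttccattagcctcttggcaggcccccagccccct
A GC box was found in 5 of the 9 windows, from 4 of the 7 genes (Col6a2, Col8a1, Col16a1 and Col18a1), against 35.7% of all 32851 promoter windows. CAGAC stood in 5 of the 9 windows, from 5 of 7 genes, and in 49.6% of all windows. CCAAT stood in 2 of the 9 (Col16a1 and Col18a1) and in 37.4% of all windows. The TATA box letters TATAAA stood in none of the 9 windows and in 13.6% of all. The AP-1 letters TGANTCA were found in 1 of the 9 windows (Col6a1) and in 7.81% of all windows. The TEAD letters CATTCC were found in 2 of the 9 (Col6a2 and Col18a1) and in 14.7% of all. The GC content of the 9 windows ran from 52.3% (Col15a1) to 74.3% (Col16a1), with a median of 52.7% over all promoters. These matches describe letters within the windows only, and the GC boxes of Col6a2 and Col16a1 lie outside the printed stretches.

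Total counts per library ran from 1237675 (IZ replicate 7) to 4738307 (IZ replicate 2). Levels are given as CPM, the counts of a gene relative to 1000000 counts of its library after TMM scaling, a trimmed-mean method that balances most genes between libraries. Replicates are separate mice, numbered as in the labels, which give no batch. IZ replicate 1 stood apart from the other IZ libraries: 19.5% of its counts were mitochondrially encoded, against 4.22 to 6.78% in the other 8 and 22.9 to 32.4% in sham. Its summed cardiomyocyte markers were also the highest of the IZ. Where it decides a value below, the value without it is given in the same paragraph.

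All 9 genes were significantly upregulated in the IZ 5d post-MI (edgeR quasi-likelihood test, adjusted over 12301 genes). Of the 9, 8 passed the filter on low counts through their sham libraries alone, while Col12a1 passed it only through the IZ, so its call as higher follows from the filter. Over all genes tested, 36.3% were called higher and 33.1% lower. In each of the 9 genes every IZ library lay above every sham library, a separation that 16.6% of all tested genes showed. The median log2 fold change of the 9 was 2.79, and that of all tested genes was 0.05. When total counts replaced TMM, the median of all genes moved to 1.13, with 9176 genes higher and 1534 lower in place of 4470 and 4074, and the log2 fold changes of the 9 genes then ran from 2.74 (Col6a2) to 5.63 (Col12a1), all above that median.

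**Figure D1:**
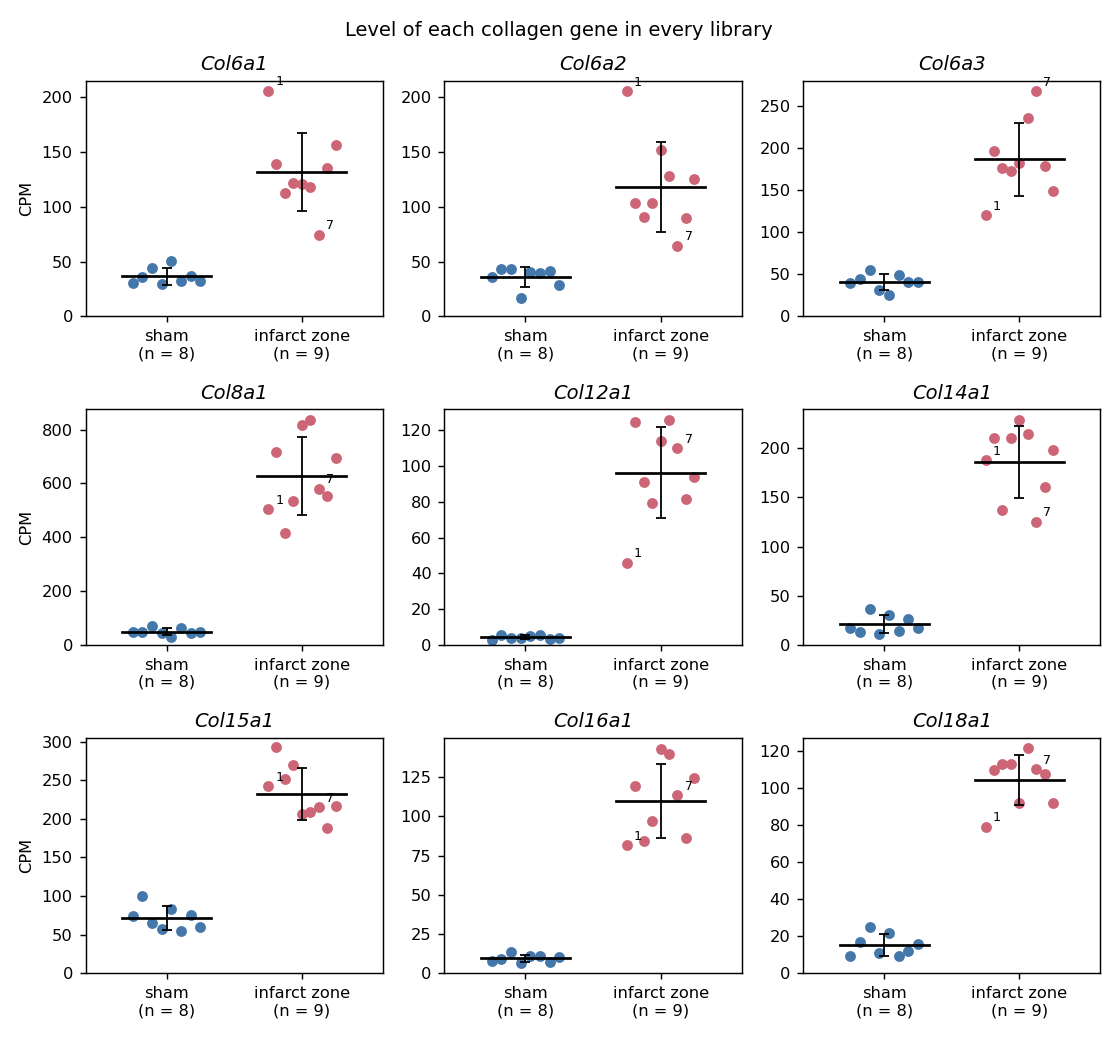
CPM (linear axes from 0) of the 9 collagen genes in each of 8 sham and 9 infarct zone libraries, with the group mean (line) and SD (bars). Digits mark infarct zone replicates 1 and 7. In every panel the lowest infarct zone library lies above the highest sham library, and in Col12a1 infarct zone replicate 1 lies lowest of its group at 45.9 CPM.

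The collagen VI genes had close levels in sham. Col6a1 ranged from 29.3 to 50.8 CPM in sham, with a median of 34.0, and from 74.7 to 206 CPM in the IZ, with a median of 122. Its mean level was 36.5 ± 7.37 CPM (SD, n = 8) in sham and 132 ± 35.7 CPM (SD, n = 9) in the IZ, a log2 fold change of 1.85 ± 0.16 (SE, edgeR adjusted p = 1.00e-09). The groups did not overlap, but the lowest IZ library was only 1.47 times the highest sham library.

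Col6a2 ranged from 16.6 to 43.7 CPM in sham (median 40.3) and from 64.5 to 205 CPM in the IZ (median 104). The low end in sham came from replicate 4, and the other 7 sham libraries lay at 29.2 CPM or above. The IZ mean of 118 ± 41.4 CPM (SD, n = 9) had the widest relative spread of the 9 genes in the IZ, with a coefficient of variation of 35.0%, and the log2 fold change of 1.70 ± 0.20 (SE, edgeR adjusted p = 1.13e-07) was the smallest of the 9.

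Col6a3, whose chain carries the C-terminal piece released as endotrophin, ranged from 25.6 to 54.9 CPM in sham (median 41.2) and from 121 to 268 CPM in the IZ (median 179). It rose by a log2 fold change of 2.19 ± 0.16 (SE, edgeR adjusted p = 6.76e-11). Its highest IZ library was replicate 7 and its lowest was replicate 1, the reverse of Col6a1 and Col6a2.

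Among the genes of fibril-associated collagens, Col12a1 showed the largest change of the 9. It was close to the detection limit in sham, with 5 to 10 counts per library, or 2.71 to 5.83 CPM (median 3.89). In the IZ it lay between 45.9 and 126 CPM, with a median of 94.0. The log2 fold change was 4.53 ± 0.22 (SE, edgeR adjusted p = 2.05e-13), and it ranked 49 among the 12301 tested genes. Every IZ library held at least 7.89 times the highest sham level, the widest gap between groups among the 9 genes. IZ replicate 1 lay lowest, and without it the log2 fold change was 4.59.

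Col14a1, whose product binds fibrils through decorin, was the most variable of the 9 genes in sham. Sham libraries ran from 11.6 to 36.9 CPM (median 17.5), with a coefficient of variation of 43.9%, and the IZ libraries from 125 to 228 CPM (median 198), with one of 19.7%. The log2 fold change was 3.14 ± 0.21 (SE, edgeR adjusted p = 1.14e-11). Sham replicates 3, 5 and 7 were the highest controls, and the lowest IZ library still lay at 3.40 times the highest of them.

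Col16a1 was low in sham, at 6.63 to 13.3 CPM (median 9.93; 12 to 22 counts), and lay at 81.5 to 143 CPM in the IZ (median 113). Its log2 fold change was 3.53 ± 0.17 (SE, edgeR adjusted p = 2.05e-13). As for Col12a1, the groups were far apart, with the lowest IZ library at 6.11 times the highest sham library.

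Col8a1, the gene of the network collagen VIII, had the highest level of the 9 genes in the IZ. It ranged from 29.2 to 72.2 CPM in sham (median 47.8) and from 417 to 835 CPM in the IZ (median 580). The means were 49.5 ± 13.0 CPM (SD, n = 8) and 628 ± 144 CPM (SD, n = 9), and the log2 fold change was 3.67 ± 0.19 (SE, edgeR adjusted p = 4.22e-13). IZ replicates 5 and 6 were highest and replicate 3 was lowest.

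The genes of the basement membrane proteoglycan collagens had the smallest relative spread in the IZ. Col15a1 was the most abundant of the 9 in sham, at 54.6 to 100.2 CPM (median 69.8), and lay at 189 to 293 CPM in the IZ (median 217). Its log2 fold change of 1.71 ± 0.13 (SE, edgeR adjusted p = 1.57e-10) was close to those of Col6a1 and Col6a2. The coefficient of variation in the IZ was 14.6%.

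Col18a1, the endostatin precursor gene, lay at 9.22 to 25.1 CPM in sham (median 14.1) and at 79.0 to 121 CPM in the IZ (median 109). It had the smallest coefficient of variation in the IZ, 12.9%, against 38.3% in sham. Its log2 fold change was 2.79 ± 0.17 (SE, edgeR adjusted p = 3.28e-12), so it rose more than the related gene Col15a1.

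**Figure D2:**
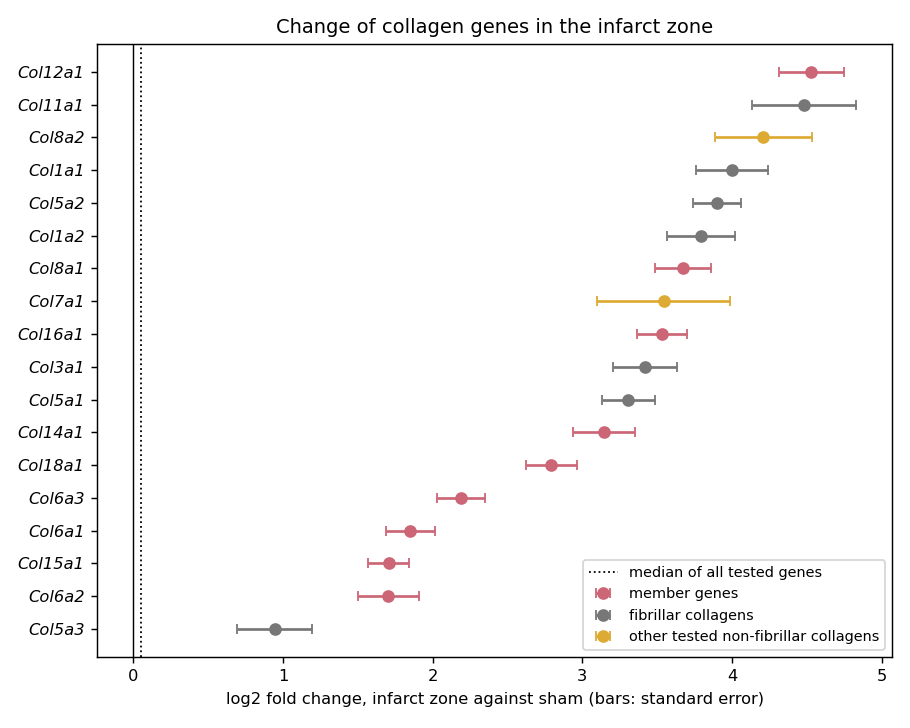
Log2 fold change (infarct zone against sham, TMM scaling; bars are SE) of the 9 genes, the fibrillar collagens and the other tested non-fibrillar collagens, with the median of all tested genes (0.05) as a dotted line. Col12a1 lies highest at 4.53, and Col6a1, Col6a2 and Col15a1 lie between 1.70 and 1.85. Col7a1 had at most 2 counts in a sham library, so its place depends on the prior count.

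The order of the levels differed between the groups. In sham the mean levels fell from Col15a1 (71.3 CPM) through Col8a1 (49.5 CPM), Col6a3 (41.1 CPM), Col6a1 (36.5 CPM), Col6a2 (36.3 CPM), Col14a1 (21.0 CPM), Col18a1 (15.2 CPM) and Col16a1 (9.61 CPM) to Col12a1 (4.22 CPM). Neighbours in that order were Col8a1 over Col6a3, Col6a2 over Col14a1 and Col16a1 over Col12a1 in every one of the 8 sham libraries, and the other neighbours changed places in at least 1 library. In the IZ the order ran from Col8a1 (628 CPM) through Col15a1 (232 CPM), Col6a3 (187 CPM), Col14a1 (185 CPM), Col6a1 (132 CPM), Col6a2 (118 CPM), Col16a1 (110 CPM) and Col18a1 (104 CPM) to Col12a1 (96.3 CPM). There, Col8a1 lay above Col15a1 in all 9 libraries, and no other neighbours kept their order in all 9. The level of Col12a1, the lowest of the 9 in both groups, was 0.0634 times that of Col15a1 in sham and 0.403 times in the IZ (geometric means).

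To ask which genes changed by different amounts, the log2 ratio of each pair was compared between the groups by an exact two-sided permutation test over 24310 allocations of the libraries, adjusted over 46 ratios. Apart from the prior count of 1, which weighs most on genes with few counts, the ratio of 2 genes in a library does not depend on the scaling of that library. Of the 36 pairs of the 9 genes, 26 changed significantly. Pairs within collagen VI were not among the 26. The Col6a1 to Col6a2 ratio differed by 0.14 on the log2 scale (95% permutation interval -0.21 to 0.48, exact p = 0.394). The Col6a1 to Col6a3 ratio differed by -0.36 (interval -0.99 to 0.27) and the Col6a2 to Col6a3 ratio by -0.50 (interval -1.15 to 0.15), so differences of these sizes were not excluded. Without IZ replicate 1 the Col6a2 to Col6a3 ratio was lower in the IZ by a difference of -0.68 (exact permutation adjusted p = 0.0182).

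Members of the same structural class did change unequally. Col12a1 rose more than Col14a1, with a difference in log2 ratio of 1.18 (interval 0.50 to 1.84, exact permutation adjusted p = 0.0043), and more than Col16a1, with one of 0.91 (interval 0.59 to 1.23, exact permutation adjusted p = 3.29e-04). Both values rest on the 5 to 10 counts of Col12a1 in a sham library, and Col12a1 passed the filter only through the IZ. With a prior count of 5 the difference to Col14a1 was 0.88 (exact permutation adjusted p = 0.0125). Col15a1 rose less than Col18a1, with a difference of -1.11 (interval -1.51 to -0.70, exact permutation adjusted p = 2.58e-04). The ratio of Col8a1 to Col16a1 differed by 0.19 (interval -0.07 to 0.51, exact permutation adjusted p = 0.234), and that of Col14a1 to Col16a1 by -0.26 (interval -0.70 to 0.17).

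**Figure D3:**
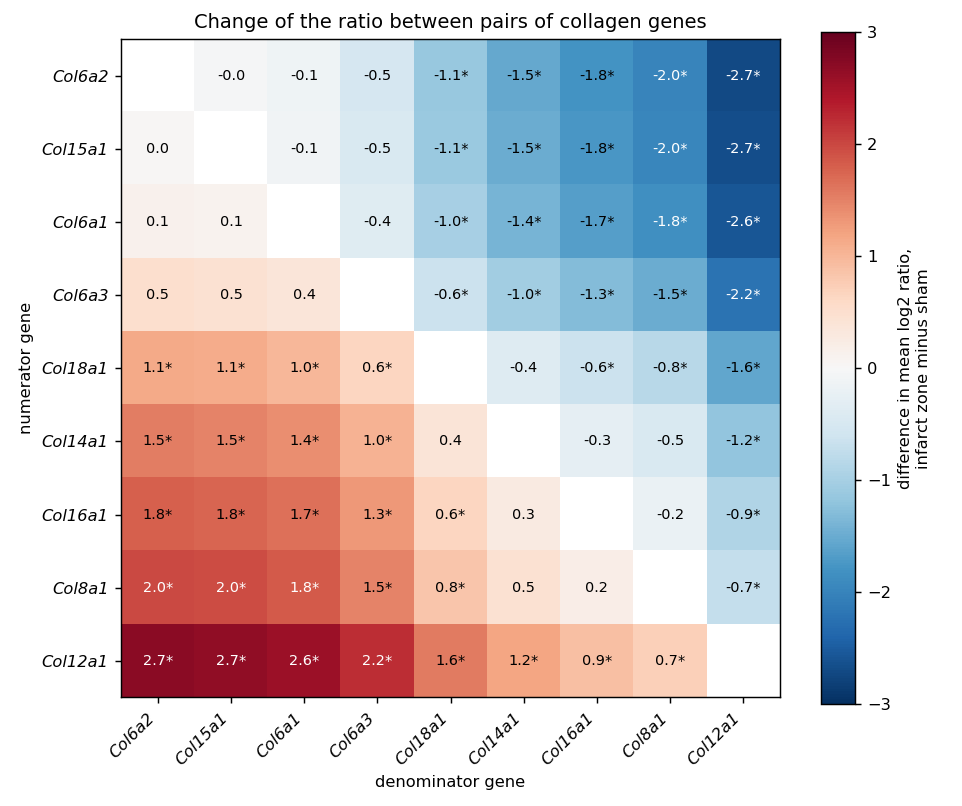
Difference between infarct zone and sham in the mean log2 ratio of the row gene to the column gene (colour and printed value), with genes ordered by their log2 fold change. An asterisk marks an adjusted exact permutation p under 0.05 over 46 ratios. The ratio of Col12a1, which had 5 to 10 counts in a sham library, to each of the other 8 genes rose. The ratios among the collagen VI genes and Col15a1 carry no asterisk.

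Col1a1, the main chain of collagen I, served as the fibrillar reference and went from 349 ± 112 CPM (SD, n = 8) to 5588 ± 1140 CPM (SD, n = 9). Relative to Col1a1, 7 of the 9 genes were lower in the IZ. The change in log2 ratio was -2.36 for Col6a2, -2.32 for Col15a1, -2.22 for Col6a1, -1.86 for Col6a3, -1.21 for Col18a1, -0.83 for Col14a1 and -0.56 for Col16a1, with exact permutation adjusted p between 2.10e-04 and 0.0041. For Col8a1 the change was -0.37 (interval -0.79 to 0.06, exact permutation adjusted p = 0.108), and for Col12a1 it was 0.35 (interval -0.07 to 0.77, exact permutation adjusted p = 0.127). The Col12a1 value depends on its few counts in sham and was -0.035 with a prior count of 5 in place of 1. Ratios to other fibrillar genes were not tested, and the log2 fold changes of the fibrillar list ran from 0.95 (Col5a3) to 4.48 (Col11a1), so these results hold for Col1a1 as the reference.

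Counted against all 44 collagen genes of the table, these genes took a smaller place in the IZ although each rose. Collagen transcripts together made up 0.0869 to 0.180% of a sham library and 1.35 to 3.36% of an IZ library. The 9 genes held 15.8 ± 1.53% of them in sham (SD, n = 8; range 13.9 to 17.9%) and 10.2 ± 1.30% in the IZ (SD, n = 9; range 8.62 to 13.0%), so the groups did not overlap. The 3 genes Col1a1, Col1a2 and Col3a1 held 55.2 ± 6.61% and 76.9 ± 2.48%. Without IZ replicate 1 the 9 genes held 9.89 ± 0.83% in the IZ (SD; range 8.62 to 10.8%) and the 3 fibrillar genes 77.6 ± 1.20%.

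Within that total, the share of Col15a1 fell from 4.03 ± 1.01% to 1.34 ± 0.30% (SD, exact permutation p = 4.11e-05, the smallest these group sizes allow), and those of Col6a1 and Col6a3 fell from 2.03 and 2.30% to 0.783 and 1.05%, with Col6a2 at 0.700% in the IZ (exact permutation p between 8.23e-05 and 1.65e-04 for the 3 chains). The share of Col12a1 rose from 0.239 ± 0.074% to 0.535 ± 0.078% (SD, exact permutation p = 8.23e-05), and all 9 IZ libraries lay above sham. The share of Col8a1 went from 2.77 to 3.54% (exact permutation p = 0.0219; 0.0393 without IZ replicate 1) and that of Col16a1 from 0.530 to 0.618% (exact permutation p = 0.0310; 0.0483 without IZ replicate 1), with overlap between the groups in both. Col18a1 went from 0.821 to 0.596% (exact permutation p = 0.0096) and Col14a1 from 1.12 to 1.06% (exact permutation p = 0.669). These p values were not adjusted over the 9 shares. When Col1a1, Col1a2 and Col3a1 were taken out of the total, the 9 genes went from 35.6 to 44.2% of the rest, and the shares of Col14a1 (2.59 to 4.57%) and Col18a1 (1.88 to 2.59%) were then higher in the IZ. Col6a3 then went from 5.16 to 4.63% (exact permutation p = 0.310), so its lower share in the IZ depends on collagens I and III being counted, while Col6a1 (4.59 to 3.30%), Col6a2 (4.48 to 2.93%) and Col15a1 (8.92 to 5.78%) still held smaller shares (exact permutation p = 0.0142, 0.0074 and 1.23e-04).

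**Figure D4:**
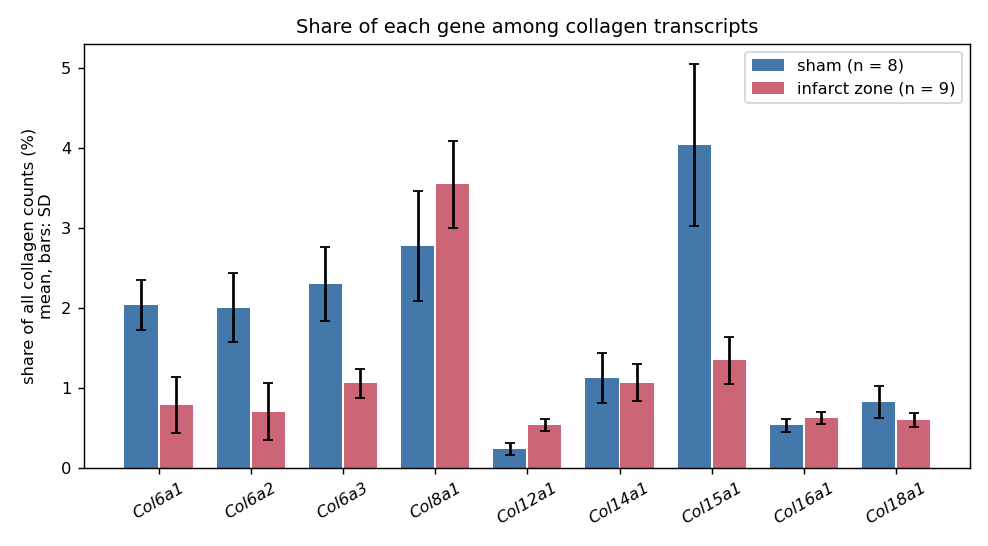
Share of each of the 9 genes among the counts of 44 collagen genes (%), mean of 8 sham and 9 infarct zone libraries with SD as bars, on an axis from 0. Col15a1 and the 3 collagen VI genes hold smaller shares in the infarct zone, Col12a1 and Col8a1 larger ones, and Col14a1 goes from 1.12 to 1.06%.

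The 3 chains of collagen VI stood in different proportions in the IZ libraries. In IZ replicate 1 Col6a1 and Col6a2 stood at 206 and 205 CPM and Col6a3 at 121 CPM, while in IZ replicate 7 they stood at 74.7, 64.5 and 268 CPM. The ratio of Col6a3 to Col6a1 was 0.586 in IZ replicate 1, 3.58 in IZ replicate 7 and 0.957 to 1.99 in the other 7 IZ libraries, and 0.509 to 1.52 in sham. This relation was examined after the values were seen. Across the 9 IZ libraries, log2 Col6a1 and log2 Col6a3 gave Pearson's r = -0.89 (exact permutation p = 0.0036, adjusted over 6 relations 0.0217) and Spearman's rho = -0.68 (exact permutation p = 0.0503, adjusted 0.173), and r was -0.80 without replicate 1 and -0.51 without replicates 1 and 7. Col6a1 and Col6a2 gave r = 0.81 (exact permutation p = 0.0138, adjusted 0.0415) and rho = 0.48 (exact permutation p = 0.194, adjusted 0.300), and r was 0.66 without replicate 1 and 0.05 without both libraries. Col6a2 and Col6a3 gave r = -0.71 (exact permutation p = 0.0339, adjusted 0.0677) and rho = -0.43 (exact permutation p = 0.250, adjusted 0.300), and r was -0.47 without replicate 1 and 0.13 without both libraries. These relations thus rest on 2 libraries, of which replicate 1 had the high mitochondrial share and replicate 7 the smallest total count, and the part of either in them was not tested. In the 8 sham libraries Pearson's r was 0.58, -0.22 and 0.40 for the same pairs, with exact permutation adjusted p of 0.198, 0.602 and 0.358. The corresponding rho values were 0.71, 0.12 and 0.48 (exact permutation adjusted p = 0.173, 0.793 and 0.300), and r without the 2 farthest libraries was 0.75, 0.52 and 0.27.

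**Figure D5:**
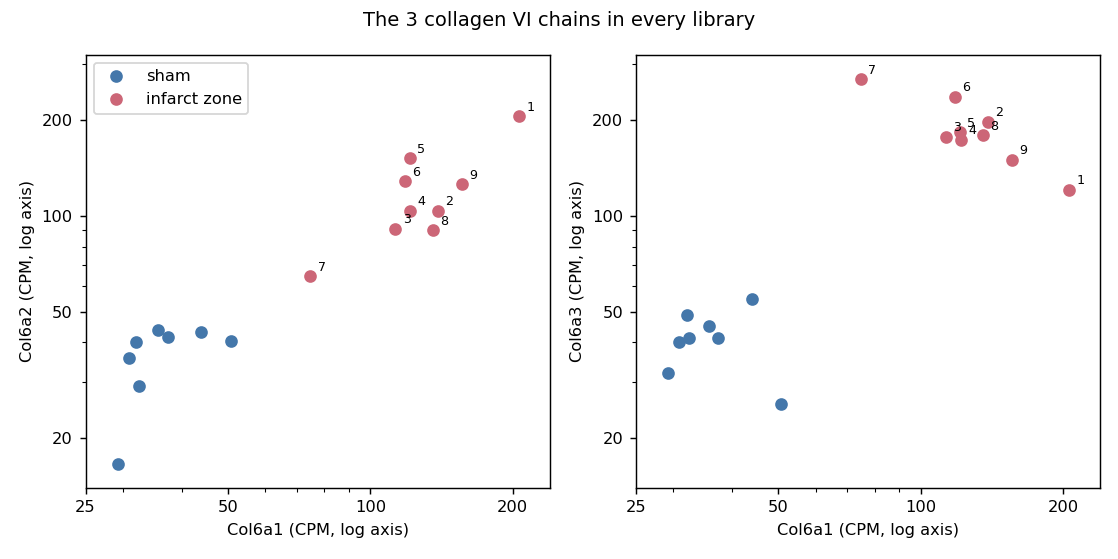
Col6a2 (left) and Col6a3 (right) against Col6a1 in CPM on log axes, 1 point per library of 8 sham and 9 infarct zone mice, with infarct zone replicate numbers. Replicates 1 and 7 lie at opposite ends in both panels, rising with Col6a1 on the left and falling on the right.

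Over all 36 pairs, the deviations of log2 CPM from the group means had a median Pearson's r of 0.20 across the 17 libraries, from -0.62 (Col6a1 and Col6a3) to 0.72 (Col6a1 and Col6a2). Higher values among the rest were found for Col12a1 with Col16a1 (0.67), Col6a3 with Col8a1 (0.64) and Col8a1 with Col16a1 (0.61). Without IZ replicate 1 the median was 0.25, and the values ran from -0.49 (Col6a1 and Col6a3) to 0.71 (Col6a1 and Col14a1). Col6a1 with Col6a2 then gave 0.61. The points share libraries, their scaling and their depth, and these values are descriptions. With Col1a1, r ran from -0.07 (Col6a1) to 0.67 (Col16a1).

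Among 9288 tested genes that averaged 10 CPM or more, those whose deviations were most like each gene's were read in the same way, as the 3 highest values of many. For Col8a1 they were Adamts2, a procollagen N-proteinase (0.88), Eva1b (0.86) and Pdlim2 (0.82), and for Col14a1 they were Idua (0.84), Col3a1 (0.82) and Fstl1 (0.82). For Col12a1 they were Ccn2, a matricellular growth factor gene (0.79), Vasn (0.78) and Prrg2 (0.78), and for Col16a1 Vkorc1 (0.87), Dap (0.82) and Fut11 (0.81). For the collagen VI chains they were Add1 (0.88), Thra (0.87) and Hist1h1c (0.85) for Col6a1, Riok1 (0.86), Ascc1 (0.84) and Chn1 (0.84) for Col6a2, and Shank1 (0.89), Laptm5 (0.87) and Hmgn1 (0.86) for Col6a3. Col15a1 was most like Snx4 (0.87), Dus3l (0.86) and Plekha1 (0.85), and Col18a1 most like Elmo2 (0.88), Gpr153 (0.85) and Ddi2 (0.83). Of these 27 genes, 19 were again among the 3 highest with total counts, and 15 without IZ replicate 1. Without that library all 3 genes were replaced for Col12a1 (by Mgp, Igfbp5 and Fmod) and for Col6a2 (by Scarf2, 2700081O15Rik and Gja4), and for Col6a1 only Add1 stayed.

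Of 18 further collagen genes outside the fibrillar and type IV families, 2 passed the filter on low counts. Both passed it only through the IZ and so had to lie higher there. Col8a2, the second chain of collagen VIII, went from 2.14 ± 0.64 CPM (SD, n = 8) to 40.1 ± 16.5 CPM (SD, n = 9), a log2 fold change of 4.21 ± 0.32 (SE). The log2 ratio of Col8a2 to Col8a1 differed by 0.26 (interval -0.31 to 0.83, exact permutation adjusted p = 0.353), and in the IZ the level of Col8a2 was 0.0604 times that of Col8a1 (geometric mean). Col7a1, of anchoring fibrils, had at most 2 counts in a sham library and lay at 2.87 to 10.2 CPM in the IZ. Of those not tested, 2 showed no overlap between the groups and were noted after their values were seen. Col9a2, a cartilage collagen chain, had 4 counts over all sham libraries and 117 over the IZ libraries. Col6a6, an alternative collagen VI chain, had 64 and 31 counts, at 2.56 to 7.73 CPM in sham and 0 to 2.15 CPM in the IZ, the opposite direction to Col6a3.

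The 7 fibrillar collagen genes of the list all rose, from a log2 fold change of 0.95 (Col5a3) to 4.48 (Col11a1), with a median of 3.79, and in 6 of them the groups did not overlap. Col11a1 passed the filter on low counts only through the IZ, so its call as higher follows from the filter.

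Among 13 collagen receptor genes, 10 were tested, 7 rose and 1 fell, with a median log2 fold change of 0.67. Lair1, an inhibitory collagen receptor of leukocytes, rose by a log2 fold change of 3.84 ± 0.26 (SE), and Mrc2, which takes up collagen for breakdown, by 2.78 ± 0.18. The collagen-binding integrin chain Itga11 rose by 2.12 ± 0.24, its partner Itgb1 by 0.94 ± 0.11, and the discoidin domain receptors Ddr2 and Ddr1 by 0.70 ± 0.14 and 0.64 ± 0.21. Lair1 and Itga11 passed the filter on low counts only through the IZ, which favours a call as higher. The anthrax toxin receptor genes Antxr1 and Antxr2, whose products bind collagen VI, differed in direction under TMM. Antxr1 ranged from 30.8 to 79.4 CPM in sham and from 65.0 to 119 CPM in the IZ and rose by 0.60 ± 0.16 (SE, edgeR adjusted p = 0.0021). Antxr2 ranged from 32.5 to 93.4 CPM in sham and from 9.72 to 44.9 CPM in the IZ and fell by 1.20 ± 0.22 on the log2 scale (SE, edgeR adjusted p = 3.64e-05), with 8 of 9 IZ libraries below all sham. Cspg4, another collagen VI receptor gene, and Itga1 did not pass the test, with log2 fold changes of 0.06 and -0.12 (edgeR adjusted p = 0.77 and 0.50). With total counts in place of TMM, 9 of the 10 tested receptor genes were called higher and none lower, Antxr2 then having a log2 fold change of -0.14 (edgeR adjusted p = 0.499) and Itga1 one of 0.94, both below the median of all genes on that scale.

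All 13 genes of matrix partners were tested, 10 rose and 1 fell. Tnc, a tenascin gene, rose most, from 9.20 ± 5.46 CPM (SD, n = 8) to 198 ± 61.1 CPM (SD, n = 9), a log2 fold change of 4.45 ± 0.31. Tnc passed the filter on low counts only through the IZ, which favours a call as higher. Tnxb, the gene of a tenascin that binds fibril-associated collagens, fell by 2.34 ± 0.29 on the log2 scale, from 32.5 ± 13.6 to 6.41 ± 3.63 CPM, with no overlap between the groups, and fell by 1.31 with total counts. Dcn, the decorin gene, stood at 856 ± 145 CPM in sham and 877 ± 154 CPM in the IZ (SD, edgeR adjusted p = 0.84), and Hspg2, the perlecan gene, at 291 ± 61.0 and 361 ± 86.1 CPM (SD, edgeR adjusted p = 0.0762). With total counts both were called higher, Dcn with a log2 fold change of 1.10 and Hspg2 with one of 1.38, near the median of all genes on that scale, and 12 of the 13 partners were higher.

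Of 10 protease genes linked to the cutting of these collagens, 7 were tested and 6 rose, from Mmp12 at a log2 fold change of 5.31 ± 0.42 (SE) downwards. Mmp3 had one of 0.42 ± 0.36 and did not pass the test (edgeR adjusted p = 0.305). Of 14 genes of collagen folding and secretion, 11 rose and 1 fell. P4ha3, a prolyl hydroxylase subunit gene, rose by 4.39 ± 0.28 (SE). Mia2, which is entered in the list by its older symbol Ctage5 and acts in the export of large cargo such as collagen, fell by 0.70 ± 0.12 on the log2 scale under TMM, but had a log2 fold change of 0.37 (edgeR adjusted p = 0.0168) with total counts. P4ha2 and Mia3 had log2 fold changes of 0.15 and 0.23 and did not pass the test (edgeR adjusted p = 0.338 and 0.0855). With total counts all 7 tested protease genes and all 14 genes of folding and secretion were called higher. The filter on low counts was met in sham alone by 8 of the 10 tested receptor genes, 10 of 13 partners, 5 of 7 proteases, 12 of 14 genes of folding and secretion and 6 of 7 fibrillar collagens. The others passed it through the IZ, where all of them except Mmp3 were called higher. Mmp12 and P4ha3 were among these others, so their calls as higher follow from the filter.

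Cell type markers moved between the same groups, with directions given under TMM. All 7 cardiomyocyte markers fell, with summed levels of 49321 to 72483 CPM in sham and 1656 to 20477 CPM in the IZ, the highest IZ value being replicate 1 and the other 8 lying at 4566 CPM or below. All 6 macrophage markers rose, with sums of 332 to 487 CPM in sham and 1836 to 5024 CPM in the IZ, or 3313 CPM and above without replicate 1. Of 6 fibroblast markers 4 rose (Pdgfra, Tcf21, Lum and Dpt), Gsn fell and Dcn did not pass the test, and the summed level, to which Gsn and Dcn gave most, was 1770 to 2772 CPM in sham and 1363 to 2091 CPM in the IZ. Of 6 mural cell markers 1 rose and 4 fell, with sums of 485 to 711 CPM in sham and 227 to 488 CPM in the IZ (up to 340 CPM without replicate 1). With total counts 2 rose and 2 fell. None of 6 endothelial markers rose and 2 fell, with sums of 441 to 874 and 331 to 538 CPM, but with total counts 5 were called higher and 1 lower. Mesothelial sums reached 19.5 CPM in sham and 121 CPM in the IZ, with an IZ median of 17.5 CPM, and 1 of the 2 tested markers, Msln, was called higher. Adipocyte sums reached 23.1 and 204 CPM, with an IZ median of 1.02 CPM, and no marker was tested. IZ replicate 2 held the highest value of both lists, with the next library at 68.3 and 65.5 CPM. Schwann cell sums reached 28.2 and 28.1 CPM, with 1 marker called higher and 1 lower. In the skeletal muscle list Myh4 was at 0 in every library and Ckm and Acta1, which heart muscle also expresses, made up nearly all of the sum of 2341 to 3315 CPM in sham and 77.2 to 1634 CPM in the IZ (up to 364 CPM without replicate 1). Of its 3 tested markers, Ckm and Acta1 fell and Tnnt3 was called higher, at 0 to 1.66 CPM in sham and 2.24 to 7.90 CPM in the IZ. All tested cardiomyocyte, fibroblast, mural and endothelial markers met the filter on low counts in sham alone. It was met there by 5 of 6 macrophage, 0 of 2 mesothelial, 0 of 2 Schwann cell and 2 of 3 skeletal muscle markers. Fcgr1, Msln and Tnnt3 passed it only through the IZ, so their calls as higher follow from the filter. Cnp, the Schwann cell marker called higher, met it in 7 sham libraries and so also passed only through the IZ, which favours such a call. The part of these marker shifts in the changes of the 9 collagen genes was not tested.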

How the data were processed

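RNA of 17 hearts (8 sham, 9 IZ) was extracted with DNase treatment, and 3' end libraries with molecular identifiers were made by the MACE method. Per the labels and the methods of the study, reads were trimmed with Cutadapt, mapped to mm10 (Bowtie2 is named in the submitters' processing notes) and counted per gene with HTSeq. The authors deposited raw counts with no normalization, and all 17 columns were used. The annotation release is not given in the sources used here. Of 31647 features, 31521 identifiers matched GENCODE symbols, and 35 were merged features with at most 0.215% of a library's counts.

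Groups were compared with edgeR 4.0.16 in R 4.3.3 (filterByExpr with a minimum of 10 counts, TMM, quasi-likelihood F-test, two-sided, Benjamini-Hochberg over 12301 genes, threshold 0.05), and SEs were derived from the F statistic. The study's tool, DESeq2 (1.42.0 here), was an alternative. Ratios used log2 CPM with a prior count of 1 and exact permutation in NumPy 2.4.6, checked against SciPy 1.17.1 on the levels of Col6a1. The 95% intervals were the shifts not refused at 0.05. Near-identical copies were sought by BLAST 2.17.0 (at least 95% identity over 100 bases). Promoter windows came from RefSeq. The procedure was tested on simulated data.

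The genes, lists and tests were chosen with earlier results of these data known. All 9 genes are named in full. From the other lists, the genes with the highest and lowest log2 fold change are named, every tested gene of the further collagens and the receptors, and for likeness the 3 highest r. Genes of these lists that did not pass the test, and Col6a6 and Col9a2, were named after their values were seen.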

Additional observations from a re-analysis of the deposited data

Results flagged for a closer look

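In 18 groups of log2 CPM values (9 genes in sham and in the IZ), the highest and the lowest library were compared with the rest by Dixon's criterion. Chance alone meets it in about 1 in 20 groups, and 2 groups met it on that log scale. Col6a2 in sham replicate 4 stood at 16.57 CPM, with the next library at 29.2 CPM. That library also held the lowest value of the sham group in 4 of the 9 genes. Col12a1 in IZ replicate 1 stood at 45.95 CPM, with the next library at 79.6 CPM, and IZ replicate 1 was the lowest of its group in 4 of the 9 genes and the highest in 2. Its mitochondrial share of 19.5% is given with the report, and its part in these values was not tested.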

How the results depend on the processing

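Across 24 other settings (DESeq2 size factors, total counts, the DESeq2 Wald test, no filter, a mean of at least 50 counts, mitochondrially encoded features removed, a block for the replicate number, and each library left out), all 216 log2 fold changes of the 9 genes stayed positive and called, with a largest adjusted p of 2.82e-06. Counts over all genes moved more. With a mean of at least 50 counts 5239 genes were called, 2747 higher and 2492 lower, since fewer genes are tested, and total counts as library sizes gave 9176 higher and 1534 lower. With each library left out in turn, 7962 to 8614 genes were called, and 26 to 28 of the 36 ratios between the 9 genes and 7 to 8 of the 9 to Col1a1. With a prior count of 5 the change in the log2 ratio of Col12a1 to Col1a1 went from 0.35 to -0.035 and that of Col8a2 to Col8a1 from 0.26 to -0.32, neither past the threshold under either prior count. Single libraries brought ratios past the threshold: Col8a1 to Col1a1 was -0.48 without sham replicate 5 (exact permutation adjusted p = 0.0309) and Col12a1 to Col1a1 was 0.44 without sham replicate 2 (exact permutation adjusted p = 0.0446).

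Replicate numbers are shared by the groups but mark different mice. Deviations of same-numbered libraries correlated at -0.22 to 0.13, and 1 of 8 numbers matched best with itself, so the numbers share no more than a label. With the replicate number as a block, 8078 genes were called and all 9 collagen genes among them.

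Sham counts of 5 to 10 limit the fold change of Col12a1, and ratios with it depend on the prior count. Intervals cover the spread between mice at 1 time point and 1 sex. Shares among collagen transcripts depend on the genes counted. When collagens I and III were left out, the lower share of Col18a1 in the IZ became a higher one and the call of Col6a3 was lost. Col14a1, whose share had not differed detectably (exact permutation p = 0.669), was then higher in the IZ.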
